A study of Mus musculus with 28 samples.

Results

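This report describes 44 genes of the skeletal muscle fibre, the contractile, calcium-handling and energy genes of striated muscle, in RNA-seq of sorted mammary cells. The 44 members are 44 of the 50600 genes counted, and every member was found in the counts by its Ensembl ID. They were chosen on these libraries, as muscle fibre genes that were high in tdTomato+ against GFP+ stroma, so that contrast is given below as a description, with no test.

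Cells came from 7 adult female PdgfrαCre R26mTmG mice on a C57BL/6 background, 10 to 12 weeks old by the study's methods, 4 of them untreated and 3 treated with estradiol and progesterone (E+P). All mice carry Cre under the Pdgfrα promoter, without an inducer, and the mTmG reporter, in which a cell that has expressed Cre, and all its descendants, carry GFP while every other cell carries tdTomato. Each mouse gave 4 libraries, from stromal (CD49f- EpCAM-) and luminal (CD49f low EpCAM+) cells, each sorted into GFP+ and tdTomato+ cells, so there are 28 libraries in 8 groups. CD31, CD45 and Ter119 were used to leave out endothelial and blood cells, and no muscle marker was part of the gate. The methods give the hormone dose, 0.14 mg estradiol and 14 mg progesterone over 14 days, in a passage on wild-type mice. Libraries held between 8623383 and 24583803 counted reads, and the 7 tdTomato+ stromal libraries between 10231034 and 22574393. Levels are CPM, the counts of a gene relative to the size of its library, with library sizes scaled by TMM, a scaling that sets the bulk of genes equal between libraries. In tdTomato+ stroma 3 counts, taken as the floor of detection, stood for 0.148 to 0.291 CPM, which covers counting error only.

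A skeletal muscle fibre contracts when myosin heavy chains of the thick filament pull on actin of the thin filament, after calcium released from internal stores binds troponin. Most of these proteins come from gene families with separate fast and slow paralogues, and the mix sets how quickly a fibre contracts and how it gains its energy. Fast fibres are further divided by their heavy chain, Myh4 (type IIb), Myh1 (type IIx) or Myh2 (type IIa), while Myh7 marks slow fibres and Myh3 and Myh8 are the embryonic and perinatal forms. In the mouse, sheet-like muscles of the skin and trunk lie against the mammary fat pads.

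The promoters of 4 members are shown because the results turn on these pairs: Myh4 and Myh1, neighbouring fast heavy chain genes whose ratio differed between libraries, and Tnnc2 and Tnnc1, the fast and the slow troponin C. Each is the 300-base window from 250 bases before to 50 bases after the gene's start in RefSeq (GRCm38.p6), written 5′ to 3′ on the gene's own strand: chr11:67237562-67237861 (plus) for Myh4, chr11:67199852-67200151 (plus) for Myh1, chr2:164779685-164779984 (minus) for Tnnc2 and chr14:31208062-31208361 (plus) for Tnnc1. Capitals mark matches on either strand to 4 motifs of muscle gene regulation: the E-box CANNTG, the MCAT motif CATTCC, the MEF2 motif and the CArG box, and matches of different motifs may overlap.
Myh4: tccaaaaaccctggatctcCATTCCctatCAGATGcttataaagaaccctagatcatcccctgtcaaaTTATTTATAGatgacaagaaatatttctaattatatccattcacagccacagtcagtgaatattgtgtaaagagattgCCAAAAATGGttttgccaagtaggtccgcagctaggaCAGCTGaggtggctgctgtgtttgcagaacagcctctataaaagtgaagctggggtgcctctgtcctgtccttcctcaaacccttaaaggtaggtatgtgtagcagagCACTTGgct
Myh1: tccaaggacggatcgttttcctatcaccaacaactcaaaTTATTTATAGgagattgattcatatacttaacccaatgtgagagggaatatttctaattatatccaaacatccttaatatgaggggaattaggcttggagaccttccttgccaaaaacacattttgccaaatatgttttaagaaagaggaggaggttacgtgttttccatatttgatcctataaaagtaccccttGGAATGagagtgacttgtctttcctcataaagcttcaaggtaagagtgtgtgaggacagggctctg
Tnnc2: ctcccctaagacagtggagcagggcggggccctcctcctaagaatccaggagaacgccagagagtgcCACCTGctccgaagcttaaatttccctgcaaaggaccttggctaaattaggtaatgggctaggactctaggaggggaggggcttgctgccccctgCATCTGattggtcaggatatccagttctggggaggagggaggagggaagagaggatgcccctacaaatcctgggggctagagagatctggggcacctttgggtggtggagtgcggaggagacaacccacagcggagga
Tnnc1: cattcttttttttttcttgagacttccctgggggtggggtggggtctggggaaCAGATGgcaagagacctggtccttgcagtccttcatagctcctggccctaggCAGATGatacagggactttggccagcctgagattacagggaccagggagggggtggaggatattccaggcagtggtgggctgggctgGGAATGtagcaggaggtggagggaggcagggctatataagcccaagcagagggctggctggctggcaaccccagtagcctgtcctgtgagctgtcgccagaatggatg
Myh4 and Myh1 shared the same 10-base MEF2 match, with its first base at -182 in Myh4 and at -211 in Myh1. Only Myh4 among these 4 windows held a CArG match, and Myh1 held no E-box. Over the 41 windows that the RefSeq table holds for 35 of the 44 members, an E-box stood in 90.2%, an MCAT motif in 29.3%, a MEF2 match in 19.5% and a CArG box in 9.76%. Over 32841 windows of the same length for all genes these shares were 72.3%, 14.7%, 3.19% and 1.63%. A match is a description of the letters in the window.

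Fibre genes were abundant in tdTomato+ stroma and low elsewhere. The summed level of the members in tdTomato+ stroma was 24645, 30560.4, 10470.0 and 6163 CPM in untreated and 27918, 52353 and 17234 CPM in E+P-treated mice. It was 70.3 to 126 CPM in the 7 GFP+ stromal libraries and 20.9 to 146 CPM in the 14 luminal libraries. In bulk samples, more cells of a type and more RNA per cell cannot be told apart. The tdTomato+ stromal libraries also differed from each other, by 8.50-fold between the highest, E+P replicate 2, and the lowest, untreated replicate 4. Of the 44 members, 37 lay higher in every tdTomato+ than in every GFP+ stromal library. Because that contrast chose the members, nothing is read from this count beside the 12.6% of all 17783 genes tested in stroma that did the same. The other 7 were Myh3, Myh7, Myl2, Myl3, Tnnc1, Tnni1 and Sln, which are slow or developmental forms and, with Sln, the calcium pump regulator sarcolipin, and each had a mean in tdTomato+ stroma of 1.19 CPM or less.

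**Figure D1:**
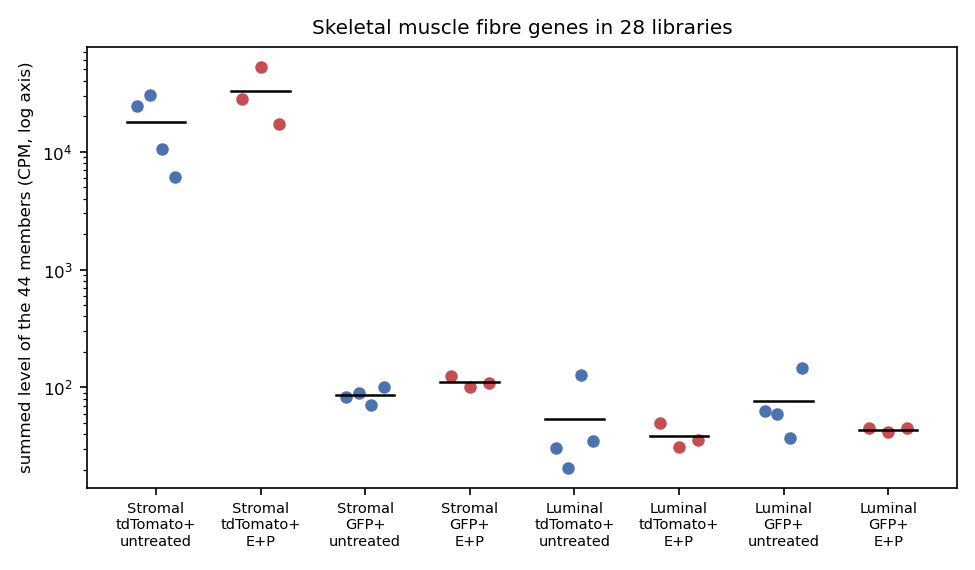
Summed level of the 44 members in each of the 28 libraries (CPM, log axis), by group, with untreated mice in blue and E+P-treated mice in red. Points are libraries and black lines group means; the 7 tdTomato+ stromal libraries lie between 6163 and 52353 CPM and all 21 other libraries at 146 CPM or less.

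The markers of other cell types were examined in the same libraries, by lists that were summed. Of 66 other skeletal muscle genes, 59 lay higher in every tdTomato+ than in every GFP+ stromal library, where 12.6% of all 17783 genes tested did. This list too was chosen with earlier results of these data known, so nothing is read from that count. The 66 genes summed to 3217, 3618, 1895 and 1629 CPM in untreated and 3628, 5061 and 2577 CPM in E+P-treated tdTomato+ stroma. The 7 markers of satellite cells and myogenic factors, the muscle stem cells and their regulators, were all over the floor in all 7 tdTomato+ stromal libraries. Their sum was 445, 384, 436 and 309 CPM in untreated and 447, 262 and 345 CPM in E+P-treated mice, against 1.78 to 4.49 CPM in GFP+ stroma. The satellite cell sum thus spanned 1.71-fold over the 7 libraries while the sum of the members spanned 8.50-fold. Smooth muscle and pericyte markers summed to 7398 to 10377 CPM, with 11 of 11 over the floor in all 7 libraries, and fibroblast markers to 1791 to 6522 CPM, against 31721 to 61145 CPM in GFP+ stroma. The 9 cardiac markers summed to 18.1 to 74.0 CPM, and 5 of them were over the floor in all 7 libraries: Ryr2 (mean 22.3 CPM), Sbk2 (5.09), Myl4 (4.90), Tnnt2 (2.21) and Tnni3 (1.30). Myl7 had no counts in any of the 7 libraries and Nppa was never over the floor. The part of other cell types in the levels below was not tested.

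Among the heavy chains, Myh4 led in every tdTomato+ stromal library. Its level was 2015, 2815, 1421 and 640.0 CPM in untreated and 1493, 3320.0 and 779 CPM in E+P-treated mice. The levels of the IIx chain Myh1 were 160.1, 274, 63.2 and 20.2 CPM in untreated and 542, 934 and 476 CPM in E+P-treated mice, and those of the IIa chain Myh2 55.7, 44.9, 14.5 and 10.7 CPM in untreated and 51.2, 123.6 and 45 CPM in E+P-treated mice. Per kilobase of exon, Myh4 made up 90.9, 90.1, 95.1 and 95.3% of the level of the 6 heavy chain genes in untreated mice and 72.7, 77.0 and 61.4% in E+P-treated mice. Myh1 made up 6.83, 8.32, 4.00 and 2.85% in untreated and 25.0, 20.5 and 35.5% in E+P-treated mice. Every E+P library thus had a smaller Myh4 share and a larger Myh1 share than every untreated library, and Myh2 never exceeded 2.99%. These shares are parts of the same total, so they are not independent, and they have no test. As shares of the summed members, 8 of the 35 members with a mean of at least 10 CPM were higher in every E+P library. Another 4 were lower in every E+P library, with Myh1 among the 8 and Myh4 among the 4. The slow chain Myh7 stayed at or below 2.17 CPM and held at most 0.0659% of the heavy chain level. Embryonic Myh3 ranged from 0 to 4.15 CPM and perinatal Myh8 from 0.863 to 12.3 CPM, and together they held at most 0.517% of the heavy chain level.

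**Figure D2:**
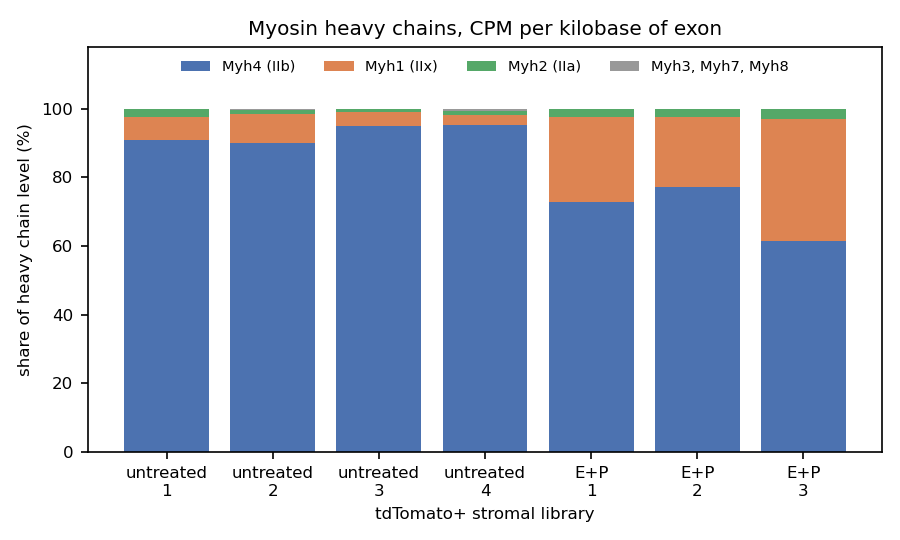
Share of each myosin heavy chain in the summed heavy chain level per kilobase of exon (%, stacked bars), for the 7 tdTomato+ stromal libraries. Myh1 takes 2.85 to 8.32% in the 4 untreated and 20.5 to 35.5% in the 3 E+P-treated mice, with Myh4 making up most of the rest.

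The heavy chain genes stand together on chromosome 11 (GENCODE M21, GRCm38), Myh2 at chr11:67171027-67197517, Myh1 at chr11:67200052-67224575, Myh4 at chr11:67238029-67260446 and Myh8 at chr11:67277124-67308634, all on the plus strand. Their sequences are alike: 20.9% of the 75-base windows of Myh1 transcripts, 15.5% of those of Myh2 and 9.68% of those of Myh4 also occur in another gene, so their levels are less certain than those of unique genes. An exon of Myh1 also overlaps the antisense gene Myhas, and the strand setting of the counts is not given in the sources used here. Myhas itself was at 0.291 to 4.99 CPM in tdTomato+ stroma.

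Myosin-binding proteins of the C family, which tune the heads of the thick filament, were present in both forms. The fast form Mybpc2 had levels of 303, 659, 183 and 91.5 CPM in untreated and 535, 891 and 284 CPM in E+P-treated mice. Its slow counterpart Mybpc1 had levels of 167, 213, 55 and 33 CPM in untreated and 286, 412 and 161 CPM in E+P-treated mice. Per kilobase, Mybpc2 held 68.9 to 80.6% of the pair, the lowest median share (73.1%) of a fast gene among 8 pairs. The fast and slow names follow the main fibre type in which each form was described, and Mybpc1 is known from fast fibres too.

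Light chains, the small subunits around the neck of the myosin head, were those of fast fibres. Per kilobase Myl1, the fast essential light chain, had the highest mean of this role, and its levels were 1310.0, 1045, 283 and 183 CPM in untreated and 1586, 2542 and 715 CPM in E+P-treated mice. The fast regulatory chain Mylpf had levels of 369, 551, 174 and 66.5 CPM in untreated and 564, 990.1 and 277 CPM in E+P-treated mice. Both were lowest in untreated replicate 4 and highest in E+P replicate 2. The slow and cardiac chains Myl2 and Myl3 were at most 1.33 and 1.53 CPM and passed the floor in 3 of 7 libraries each.

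Thin filament genes were those of fast fibres too. Acta1, the actin of skeletal muscle, had the highest mean level of all members per kilobase, 2200.4 CPM per kilobase, and its levels were 3409.8, 3484, 973 and 514 CPM in untreated and 4408, 8253 and 2618 CPM in E+P-treated mice. Troponin C binds the calcium that starts contraction, and the fast form Tnnc2 had levels of 1563, 1378, 400.5 and 455 CPM in untreated and 1209.8, 2017 and 583 CPM in E+P-treated mice. The slow and cardiac form Tnnc1 had levels of 0.19, 0.0903, 0.133 and 0.583 CPM in untreated and 0.459, 0.0494 and 0.184 CPM in E+P-treated mice. Tnnc1 was thus near the floor where Tnnc2 was never under 400.5 CPM, and per kilobase Tnnc2 held at least 99.9% of the pair in every library. Of the 75-base windows of Tnnc2 transcripts 35.0% also occur in Ube2c, a gene that overlaps it in antisense. For the inhibitory troponin the fast gene Tnni2 had levels of 921, 1218, 358 and 252 CPM in untreated and 1225, 2083 and 618 CPM in E+P-treated mice. The slow gene Tnni1 had levels of 0, 0.181, 0.0664 and 0.388 CPM in untreated and 2.09, 0.593 and 0.0612 CPM in E+P-treated mice. The tropomyosin-binding troponin followed the same pattern, with fast Tnnt3 high and slow Tnnt1 detected but low. Tnnt3 levels were 1967, 2430.1, 701 and 451 CPM in untreated and 2131, 3866 and 1152 CPM in E+P-treated mice, and Tnnt1 levels were 8.64, 12.4, 1.33 and 4.76 CPM in untreated and 3.83, 2.77 and 0.856 CPM in E+P-treated mice. Nebulin (Neb), the ruler of thin filament length, had levels of 1123, 1309, 482 and 262 CPM in untreated and 1059, 2332 and 725 CPM in E+P-treated mice. Nrap, an actin anchor of assembling sarcomeres, ranged from 23.8 to 293 CPM.

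Taking all 8 paralogue pairs together, per kilobase, the fast genes held 98.8, 98.9, 99.1 and 98.9% of the level in untreated mice and 98.7, 99.0 and 98.5% in E+P-treated mice. The groups overlapped, with means 98.9 and 98.7%. The summed counts of the slow genes Myh7, Myl2, Myl3, Tnnc1 and Tnni1 over the 7 libraries were 77, 41, 42, 24 and 61.

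**Figure D3:**
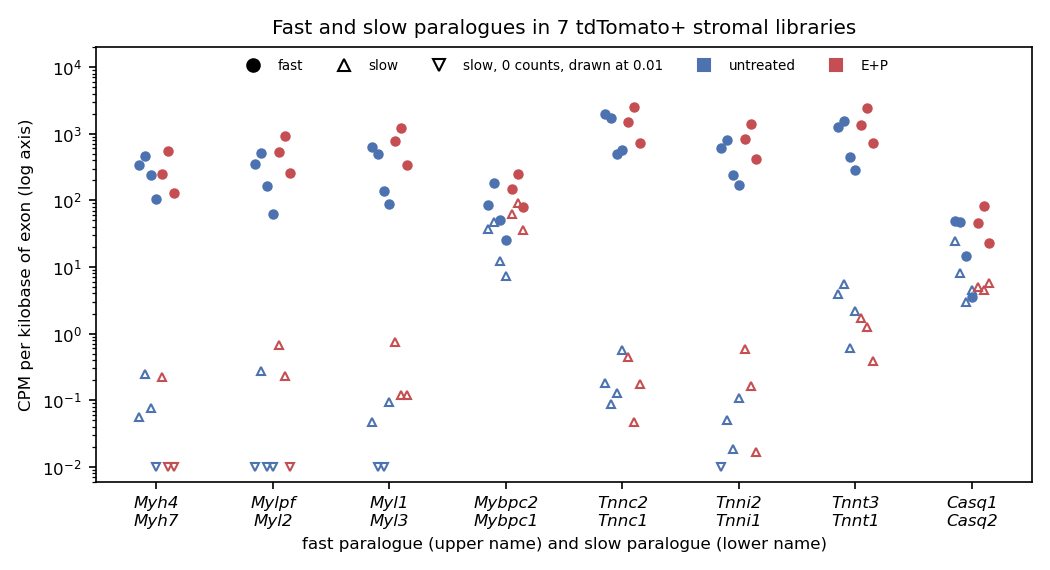
Level per kilobase of exon (log axis) of the fast (filled circles) and slow (open triangles) gene of 8 paralogue pairs in 7 tdTomato+ stromal libraries, untreated in blue and E+P-treated in red; slow genes without counts are downward triangles at 0.01. In 6 of the pairs the fast gene holds at least 99.2% of the pair in every library, and Mybpc2 with Mybpc1 and Casq1 with Casq2 are the exceptions.

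Genes of the Z-disc and M-band, which hold the filaments in register, followed. Titin (Ttn), the giant spring of the sarcomere, had levels of 4608, 6186, 2104 and 1433 CPM in untreated and 4088, 9261 and 3555 CPM in E+P-treated mice. Per kilobase the highest mean of this role was that of alpha-actinin-3 (Actn3), a crosslinker found in fast fibres, with levels of 709.6, 1224, 435 and 204 CPM in untreated and 1101, 1911 and 592 CPM in E+P-treated mice. Its paralogue Actn2, used by all fibres, ranged from 8.06 to 138.4 CPM, and the Z-disc genes Myoz1 and Tcap from 25.8 to 171 CPM and 28.6 to 132 CPM. Xirp2, an actin-binding gene of the junctions, ranged from 165 to 2227 CPM. Of the M-band genes, Myom2 had levels of 52.7, 80.4, 20 and 10.9 CPM in untreated and 99.4, 170.5 and 60.5 CPM in E+P-treated mice. Its paralogue Myom1 had levels of 401, 358, 157 and 78.1 CPM in untreated and 282, 464 and 213 CPM in E+P-treated mice. Desmin (Des), an intermediate filament made in smooth muscle and pericytes too, varied least among these genes, with levels of 714, 738, 461 and 378 CPM in untreated and 986, 1249 and 637 CPM in E+P-treated mice. Cmya5, which binds desmin, had levels of 433, 636, 218 and 108 CPM in untreated and 509.6, 941 and 358 CPM in E+P-treated mice.

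Genes that turn excitation into calcium release were present with their fast forms. The calcium pump of fast fibres, Atp2a1, had levels of 791, 1223, 389.6 and 165 CPM in untreated and 1128, 2265 and 694 CPM in E+P-treated mice, and parvalbumin (Pvalb), a calcium buffer that speeds relaxation, had the next highest mean per kilobase, with levels of 243, 372, 155 and 45.4 CPM in untreated and 281, 488 and 139.8 CPM in E+P-treated mice. The release channel Ryr1 had levels of 219, 295, 146 and 76.3 CPM in untreated and 216, 436 and 152 CPM in E+P-treated mice. Its voltage sensor Cacna1s had levels of 72, 133, 50.6 and 28.9 CPM in untreated and 162, 324 and 104 CPM in E+P-treated mice. Triadin (Trdn), which ties the channel to its store, had levels of 188, 183, 53.6 and 41.3 CPM in untreated and 178, 337 and 126 CPM in E+P-treated mice. Calsequestrins hold calcium in the store, and the fast form Casq1 had levels of 97.2, 91.5, 28.1 and 6.99 CPM in untreated and 90.5, 162 and 44.4 CPM in E+P-treated mice. The slow and cardiac form Casq2 had levels of 66.6, 22.6, 8.23 and 12.5 CPM in untreated and 13.8, 12.4 and 15.7 CPM in E+P-treated mice. Untreated replicate 1 had the highest Casq2 level and untreated replicate 4 more Casq2 than Casq1, so the Casq1 share of the pair per kilobase ran from 43.9 to 94.8%. Sln, which restrains the calcium pump, had more than 3 counts in 3 libraries, at 0.451, 0.255 and 0.889 CPM.

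Energy genes were led by the enzyme of the phosphocreatine store. Muscle creatine kinase (Ckm), which renews ATP from phosphocreatine, had the highest mean of this role per kilobase, with levels of 963, 1105, 370.4 and 205 CPM in untreated and 1212, 2135 and 610.1 CPM in E+P-treated mice. The glycolytic enzyme Eno3 had levels of 209.6, 317, 79.2 and 36 CPM in untreated and 352, 616 and 153 CPM in E+P-treated mice. Pgam2, another enzyme of glycolysis, ranged from 33.8 to 246 CPM. Glycogen phosphorylase (Pygm) had levels of 183, 253, 87.3 and 46.7 CPM in untreated and 248, 466 and 129 CPM in E+P-treated mice. Myoglobin (Mb), the oxygen store of oxidative fibres, had lower levels, 44.7, 30.2, 9.09 and 5.92 CPM in untreated and 91.9, 137 and 42.1 CPM in E+P-treated mice. Untreated replicate 1 was the 1 untreated library above the lowest E+P library for Mb.

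**Figure D4:**
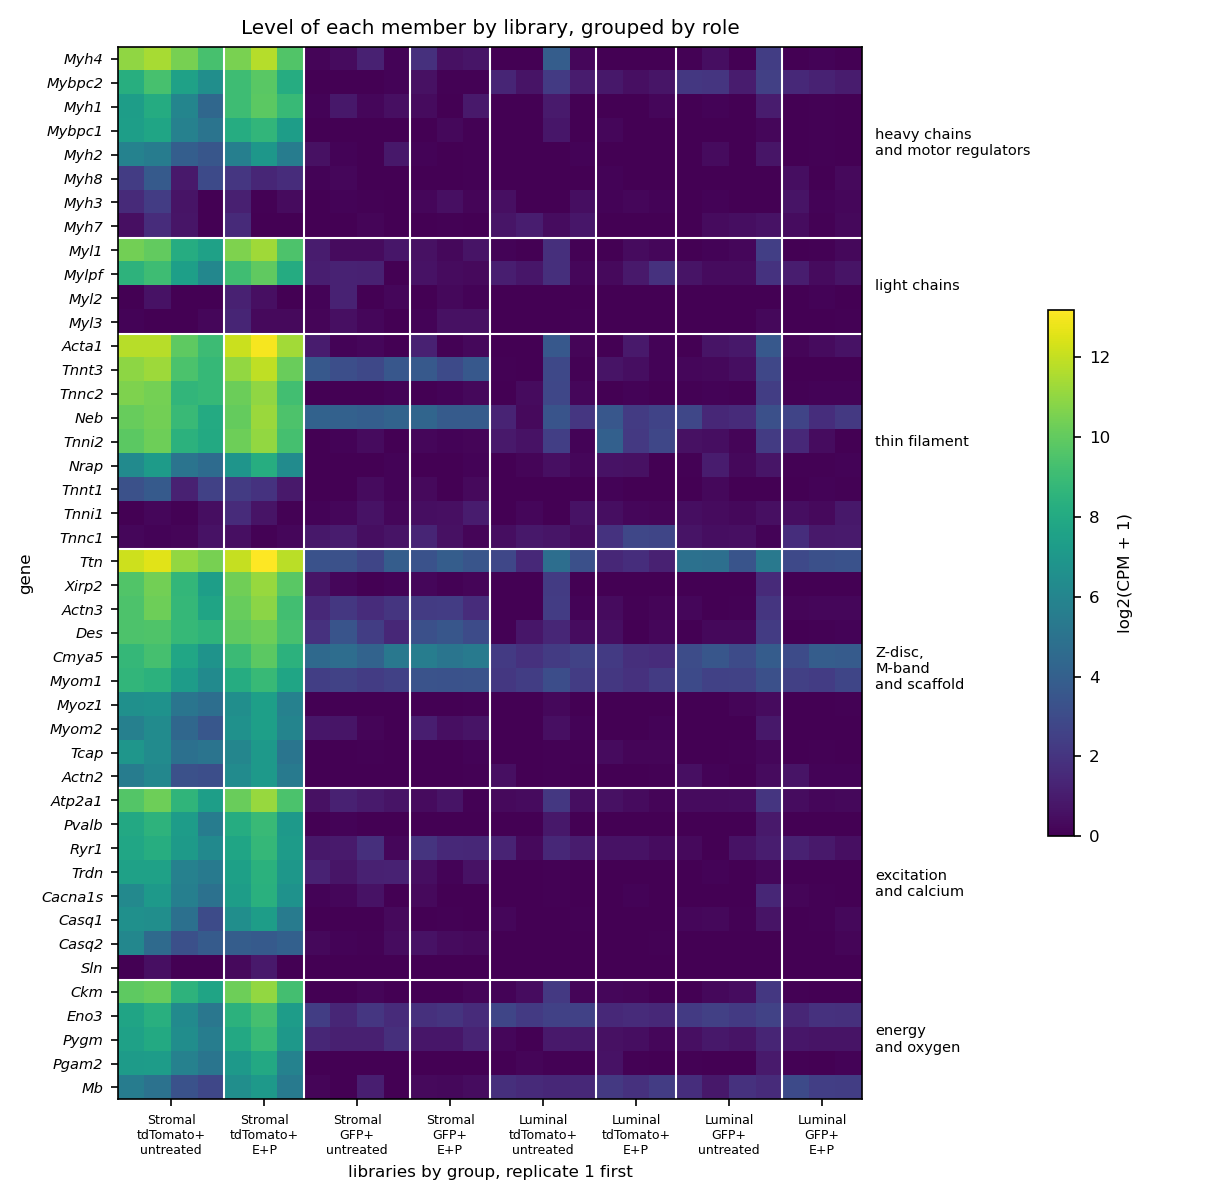
Level of each of the 44 members, as log2(CPM + 1) in colour, in the 28 libraries (columns, by group), with genes grouped by role (rows) and ordered by their mean in tdTomato+ stroma. Most rows are bright only in the 7 tdTomato+ stromal libraries; Cmya5, Neb, Ttn and Tnnt3 also show in GFP+ stroma.

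Over the 7 tdTomato+ stromal libraries, the members with a mean of at least 10 CPM ranked the libraries in nearly the same order. These were 35 of the 44. For 31 of the 35, Pearson's r between log2 CPM and the log2 sum of the other members was over 0.9, with a median of 0.97 and a median Spearman's rho of 0.96. The exceptions were Casq2 at 0.30, Myh4 at 0.82, Tcap at 0.85 and Myh1 at 0.90. These are descriptions over 7 libraries that share the treatment groups and the scaling. The 3 other genes with a mean of at least 10 CPM most like the summed members were Myot, Mylk4 and Ppp1r3a, each with an r of 0.99. Myot codes for a Z-disc protein, Mylk4 for a kinase and Ppp1r3a for a glycogen phosphatase subunit of muscle. By contrast r was -0.11 for the summed satellite cell markers, 0.30 for smooth muscle and pericyte markers, -0.48 for fibroblast markers, 0.56 for the number of counted reads and 0.57 for the share of mitochondrial reads. Of the 66 other muscle genes those with the highest level per kilobase were Cox6a2, Myot, Asb5, Klhl41, Cox8b and Dmd. Asb5 and dystrophin (Dmd) did not follow the members, with r of -0.60 and 0.30.

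Whether E+P treatment changed the fibre genes in tdTomato+ stroma was tested over all 17783 genes with enough counts, of which 39 were members; Myh7, Myl2, Myl3, Tnni1 and Sln were too low to be tested. The treated libraries tended to be higher, but no member passed the test, and the spread between mice was as large as the difference. The sum of the members averaged 17960 ± 11529 CPM (SD, n = 4) in untreated and 32502 ± 18002 CPM (SD, n = 3) in E+P-treated mice, and the groups overlapped. On the log2 scale the difference was 0.98, as large as the SD of 0.98 within groups. With each mouse left out in turn it ran from 0.56, without untreated replicate 4 or without E+P replicate 2, to 1.36, without E+P replicate 3, and it was 0.94 to 1.05 under the other scalings and lists tried.

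Of the 39 members tested 0 were called by the quasi-likelihood test of edgeR at an adjusted p of 0.01, where 22 of 17783 genes (0.124%) were called. At an unadjusted p under 0.05 there were 4, namely Myh1, Mb, Cacna1s and Myom2. DESeq2 and limma-voom also called 0 members, where they called 384 of 17431 and 8 of 17783 genes. They had 1 and 25 members at an unadjusted p under 0.05. The share of all genes under this unadjusted limit was not computed, so nothing is read from such counts. The log2 fold change was above 0 for 34 of the 39, with a median of 0.88 against -0.03 over all genes tested. This median was 0.40 without E+P replicate 2 and 1.35 without untreated replicate 2. When genes with few counts were kept in the fit, edgeR called 26 of the 44 members, all higher with E+P, and 840 of 35652 genes.

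By role, the log2 fold change was above 0 for 5 of 7 heavy chain and motor genes, both light chains, 6 of 8 thin filament genes, 10 of 10 Z-disc and M-band genes, 6 of 7 calcium genes and 5 of 5 energy genes. It was above 0 for 13 of 13 fast genes and for 1 of 4 slow genes, Mybpc1. Both developmental chains lay below 0, Myh3 at -1.65 ± 1.2 (SE) and Myh8 at -1.34 ± 0.71 (SE). None of these counts stands for a called change, and most members moved together between libraries, so their signs are not independent. Of the 66 other muscle genes, 65 were tested, 57 lay above 0 and 0 were called. There were 12 at an unadjusted p under 0.05, a count again without the share of all genes beside it.

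**Figure D5:**
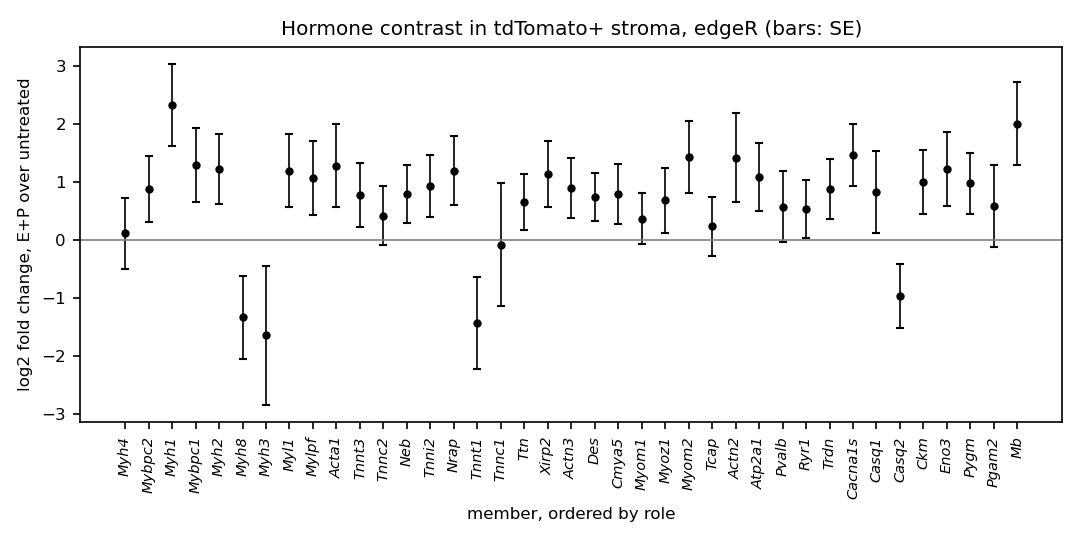
Log2 fold change of 39 members between E+P-treated (n = 3) and untreated (n = 4) tdTomato+ stroma from edgeR, with standard errors as bars, ordered by role. Of the points 34 lie above 0, Myh1 is highest at 2.33, and none was called at an adjusted p of 0.01.

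Myh1 had the highest log2 fold change of the members, 2.33 ± 0.71 (SE), with an adjusted p of 0.14 in edgeR. It was the 1 member of 39 whose 3 E+P libraries all lay above all 4 untreated ones, where 5.2% of all genes tested did, and 0 members had all E+P libraries below, where 5.48% of all genes did. In an exact permutation test of the 7 libraries on log2 CPM its p was 0.057, two-sided, and the smallest p this design allows is 0.029. Mb was at 2.01 ± 0.72 (adjusted p 0.20), Cacna1s at 1.47 ± 0.53 (adjusted p 0.20) and Myom2 at 1.43 ± 0.62 (adjusted p 0.29), also from edgeR. Myh4, the heavy chain with the highest level, was at 0.12 ± 0.62, and Acta1 at 1.28 ± 0.71.

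The proportion between Myh1 and Myh4 was singled out after its values were seen and has no test. The ratio of Myh1 to Myh4 in CPM was 0.0794, 0.0975, 0.0445 and 0.0316 in untreated and 0.363, 0.281 and 0.611 in E+P-treated mice. The lowest E+P ratio was thus above the highest untreated ratio. On the log2 scale the means were -4.12 and -1.33, and the difference of 2.79 lay between 2.48 and 3.04 when each library was left out in turn. Taking the counts of antisense Myhas off Myh1 moved it to 2.81. Of all 595 ratios between 2 members with a mean of at least 10 CPM, 218 (36.6%) did not overlap between treatments. Among the ratios with Myh1 these were 32 of 34, and among those with Myh4 28 of 34. The widest gap of all 595 was that of Myh1 and Myh4, and the next widest that of Mb and Tcap. Ratios that share a gene are not independent. The share over ratios of genes outside the members was not computed, so these counts are a description only.

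The summed markers of other cells are given by treatment too, as a description without a test. The fibroblast markers summed to 4796, 2340.1, 6522 and 2765 CPM in untreated and 2217, 1791 and 2302 CPM in E+P-treated tdTomato+ stroma, so that every E+P library was lower. Luminal markers were 76.7, 285, 457 and 18.5 CPM in untreated and 8.47, 37.9 and 4.04 CPM in E+P-treated mice, with overlap. Endothelial markers summed to 137, 75.1, 63.7 and 104 CPM in untreated and 99, 246 and 209 CPM in E+P-treated mice, with overlap. This list was split. The means of Pecam1, Cdh5 and Kdr were higher with E+P. That of Tek was lower, 34.2 CPM in untreated and 16.2 CPM in E+P-treated mice, and that of Emcn was 3.87 and 3.98 CPM. Schwann cell markers were 21.6, 14.8, 21 and 9.42 CPM in untreated and 4.85, 5.19 and 12.9 CPM in E+P-treated mice, also with overlap. Means of the cardiac markers were 42.5 and 29.7 CPM, of satellite cell markers 394 and 351 CPM, of smooth muscle and pericyte markers 8900.5 and 7725 CPM and of blood cell markers 37.9 and 38.0 CPM in untreated and E+P-treated mice. Their part in the treatment values was not tested.

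In GFP+ stroma the members were low, and 0 of 39 were called with E+P by edgeR, where 41 of 17783 genes (0.231%) were called. DESeq2 and limma-voom called 0 members, where they called 192 of 17086 and 100 of 17783 genes. At an unadjusted p under 0.05 there were 0 members in edgeR, 4 in DESeq2 and 0 in limma-voom, without the share of all genes. With genes of few counts kept in the fit, edgeR called 5 of the 44 members, 3 of them higher with E+P, and 459 of 35652 genes. The 39 members passed the filter on low counts mostly through their levels in tdTomato+ stroma. In a fit of the GFP+ libraries alone 13 members were tested and 0 called, where 187 of 15199 genes were called. At that rate 0 of 13 is not set apart from the background.

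What was left of the members in GFP+ stroma had another composition. Cmya5 held 33.3% of the members' counts there, Neb 15.6%, Ttn 10.2% and Tnnt3 9.52%, against mean shares of 1.91, 4.31, 19.3 and 7.38% in tdTomato+ stroma. Acta1 held 0.373% there and 12.8% in tdTomato+ stroma. Cmya5 accordingly had the smallest excess in tdTomato+ stroma of the members with a mean of at least 10 CPM, 14.2-fold. Its GFP+ stromal levels were 21.9, 25.3, 17.2 and 38.4 CPM in untreated and 47.2, 33.6 and 42.1 CPM in E+P-treated mice. Then came Myom1 with 42-fold, Neb with 66.7-fold, Casq2 with 81.5-fold, Eno3 with 93.1-fold and Des with 116-fold, at 4.14 to 9.5 CPM, 12.7 to 18.8 CPM, 0.0609 to 0.5681 CPM, 1.63 to 4.31 CPM and 1.74 to 10.5 CPM in GFP+ stroma. At the other end Ckm had 5 counts and Tnnc2 7 counts summed over the 7 GFP+ libraries, against 107011 and 116514 in tdTomato+ stroma, and no fold is given on so few counts. Pgam2 had no counts in any GFP+ stromal library and was at least 563-fold higher, taking 3 counts per library as the floor. Of the 75-base windows of Cmya5 18.9% also occur in the antisense genes Gm4814 and A630019I02Rik, and Ttn, Des and Eno3 are made outside skeletal muscle as well.

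Tnnc1 ran against the rest. It had 70 counts over the 7 GFP+ stromal libraries and 24 over the 7 tdTomato+ ones, and its mean was highest in tdTomato+ luminal cells. In tdTomato+ luminal cells it was 0.413, 0.791, 0.651 and 0.349 CPM in untreated and 2.8, 6.11 and 5.71 CPM in E+P-treated mice, and in GFP+ luminal cells 0.633, 0.403, 0.457 and 0.0786 CPM in untreated and 2.31, 0.861 and 0.916 CPM in E+P-treated mice. In both kinds of luminal cell the E+P libraries did not overlap the untreated ones. Mb, named like Tnnc1 after its values were seen, showed the same in luminal cells, with 2.37, 2.01, 1.81 and 1.86 CPM in untreated and 3.53, 2.65 and 4.04 CPM in E+P-treated mice for tdTomato+ and 2.34, 0.805, 2.63 and 2.12 CPM in untreated and 6.73, 4.36 and 4.25 CPM in E+P-treated mice for GFP+ cells. These were 2 of the 15 members tested in luminal cells, where 17.1% of 16538 genes in tdTomato+ and 14.3% in GFP+ cells lay higher in every E+P library, so 2 of 15 is not set apart from that background. As many members lay lower in every E+P library, Eno3 and Myh7 in tdTomato+ and Eno3 and Ttn in GFP+ luminal cells. The share of all genes that lay lower there was not computed, so nothing is read from this count. The mean of Ttn in GFP+ luminal cells was 26.3 CPM in untreated and 7.91 CPM in E+P-treated mice, and that of Eno3 was 4.32 and 2.32 CPM. In tdTomato+ luminal cells the means of Eno3 were 4.77 and 1.93 CPM, and Myh7 had a mean of 0.716 CPM in untreated and no counts in E+P-treated mice. Both Tnnc1 and Mb are known outside skeletal muscle.

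Between GFP+ and tdTomato+ luminal cells, averaged over treatment, 1 of the 15 members tested was called by edgeR, against 5745 of 16538 genes (34.7%). This was Cmya5, higher in GFP+ cells by 1.64 ± 0.22 on the log2 scale (SE, adjusted p 4.33e-05). Its levels were 7.28, 10.4, 7.2 and 13.3 CPM in untreated and 7.21, 13.7 and 12.9 CPM in E+P-treated mice for GFP+ cells and 3.66, 2.74, 3.9 and 5.16 CPM in untreated and 3.69, 2.44 and 2.14 CPM in E+P-treated mice for tdTomato+ cells, and it was higher in the GFP+ cells of 7 of 7 mice. Ttn was at 1.71 ± 0.49 with an adjusted p of 0.013 and Tnnc1 at -1.17 ± 0.39 with an adjusted p of 0.022, both short of the threshold in edgeR. Without untreated replicate 3, 3 of 14 members tested were called, beside 5336 of 16510 genes. Without E+P replicate 1 it was 2 of 27 members, beside 4630 of 17283 genes.

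In luminal cells 2 libraries carried traces of the fast fibre genes. In untreated mice, the 13 fast genes summed to 4.18, 2.49, 48.1 and 2.37 CPM over the tdTomato+ luminal libraries. Over the GFP+ luminal libraries of the same mice they summed to 5.57, 5.54, 2.46 and 39.8 CPM. Replicate 3 of the first group and replicate 4 of the second stood apart from the rest. Myh4 was at 13.6 CPM in the first and 4.24 CPM in the second, and Acta1 at 11.2 CPM in both, against at most 0.855 CPM for Acta1 in the other 12 luminal libraries. In tdTomato+ luminal cells of E+P-treated mice the fast sum was 18.2, 6.03 and 10 CPM, of which Tnni2 made up 15.7, 3.5 and 5.99 CPM. Untreated replicates 3 and 4 were the mice with the lowest sums of the members in tdTomato+ stroma. The other luminal library of these mice was low, at 2.46 CPM for GFP+ cells of replicate 3 and 2.37 CPM for tdTomato+ cells of replicate 4. A link between these values was not tested.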

How the data were processed

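Stromal and luminal cells of 7 mice were sorted by the study into GFP+ and tdTomato+ fractions, and rRNA-depleted total RNA was sequenced as 75-base paired reads. By the study's methods RNA amount and quality ranged widely, and fragmentation time was changed to suit poorer RNA. The sample titles do not give the quality of each library, so its part in differences between libraries was not tested. The authors aligned reads with STAR 2.5.2a to GRCm38.p5 and deposited raw counts per gene with GENCODE annotation; the release and the strand setting of the counting are not given in the sources used here. The members and the gene lists were chosen with earlier results of these data known.

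Groups, treatments and replicate numbers came from the sample titles. Counts were tested as deposited with the quasi-likelihood test of edgeR 4.0.16 (R 4.3.3), TMM scaling and the package's filter on low counts, in 1 fit of the 14 stromal libraries and 1 of the 14 luminal libraries, with p-values adjusted by the method of Benjamini and Hochberg over all genes tested and called under 0.01, the threshold of the study's methods. Alternatives were DESeq2 1.42.0, limma-voom (limma 3.58.1), other scalings, no filter, a threshold of 0.05, a replicate block, only the groups compared, and each mouse left out. The tests were first run on simulated counts in which each gene varied on its own. The members moved together between libraries, so that run does not bear on the number of members called. CPM used TMM-scaled library sizes, correlations used log2 values with a prior count of 2, and levels between genes were compared per kilobase of exon (GENCODE M21). Symbols came from a table of gene names, in which 1 muscle gene, Hjv, was matched by its older symbol. Shared windows are 75-base stretches of a gene's transcripts that also occur, on either strand, in another gene.

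GFP+ and tdTomato+ libraries with the same treatment and number came from the same mouse. Deviations from group means correlated at 0.060 between them in stroma, over 0.1 in 1 of 7 mice, and at 0.19 in luminal cells, over 0.1 in 5 of 7. Untreated and E+P-treated mice are different animals, so their numbers pair nothing. The replicate block was the mouse for GFP+ against tdTomato+ luminal cells, while for E+P it was only the replicate number, which different mice share. By rule, values in every tdTomato+ stromal library are given for the members with the highest level of each role, for paralogue pairs, for called members, for those with the smallest excess over GFP+ stroma and for those reaching 1 CPM elsewhere; other genes are named for a high level or likeness to the members.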

Additional observations from a re-analysis of the deposited data

Results flagged for a closer look

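Libraries that stood apart from the rest of their group in the summed level of the members or of a part of them were sought with Dixon's ratio, the gap of the extreme library to its neighbour over the whole range of the group. The summed lists were checked in each untreated group. In untreated tdTomato+ stroma each of the 35 members with a mean of at least 10 CPM was also checked singly. Of these 71 checks 10 passed the limit, all of them for summed lists and none for a single member. Chance alone gives about 1 in 20, and checks that share libraries and genes are not independent.

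In tdTomato+ luminal cells of untreated mice, replicate 3 was high for all members (128 CPM against 20.9 to 34.9 CPM in the others, ratio 0.869). It was also high for the heavy chains and motor regulators (19.3 against 1.70 to 2.74 CPM, ratio 0.941), the thin filament genes (39.0 against 2.19 to 4.81 CPM, ratio 0.929) and the fast genes (48.1 against 2.37 to 4.18 CPM, ratio 0.960). In GFP+ luminal cells of untreated mice, replicate 4 was high for the light chains (7.54 against 0.403 to 0.633 CPM, ratio 0.968), the thin filament genes (34.7 against 4.34 to 7.92 CPM, ratio 0.882) and the excitation and calcium genes (7.54 against 0.604 to 0.971 CPM, ratio 0.947). The same library was high for the energy and oxygen genes (13.2 against 6.52 to 7.37 CPM, ratio 0.874) and the fast genes (39.8 against 2.46 to 5.57 CPM, ratio 0.917). In GFP+ stroma of untreated mice, replicate 2 was high for the slow genes (3.10 against 1.36 to 1.65 CPM, ratio 0.837).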

How the results depend on the processing

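The number of members called with E+P was 0 in tdTomato+ stroma and 0 in GFP+ stroma under all alternatives tried except 1. Without the filter on low counts it was 26 and 5 of 44 members, beside 840 and 459 of 35652 genes. With any 1 mouse left out, both counts were 0 to 0. Between GFP+ and tdTomato+ luminal cells 1 member was called, against 3 at an adjusted p of 0.05, 2 with library size only, 3 with DESeq2, and 1 to 3 when each mouse was left out. Of all genes 5745 of 16538 were called in that comparison, 7983 at an adjusted p of 0.05, 5823 with library size only and 6707 of 16503 with DESeq2. With each mouse left out 3933 to 5336 genes were called. Over all genes, the 22 called with E+P in tdTomato+ stroma became 143 at an adjusted p of 0.05, 34 with library size only, 384 with DESeq2, 8 with limma-voom, 840 without the filter, 45 with the replicate block, 0 in a fit of the 2 groups compared, and 1 to 85 when each mouse was left out. The replicate block, which for E+P joins different mice that share only a number, changed no call of a member. The summed level of the members, 0.98 higher with E+P on the log2 scale, was 0.56 to 1.36 when each mouse was left out. The fast share, 0.22 points lower with E+P (-0.22), was -0.96 from counts not divided by length, -0.0038 as the median over pairs and 0.10 for the troponins alone, and -0.35 to -0.10 when each mouse was left out. Alternatives gave 136 values for the single genes named, the ratio of Myh1 to Myh4 and the members' correlation. Of these 125 counted as unchanged, 11 came past the threshold and 0 turned direction. Only the tests of single genes have a threshold. The 9 values of the ratio were held against the SD within groups, and the 1 of the correlation against no limit. Acta1, Ckm, Myh1, Mb, Cacna1s and Myom2 passed with E+P in tdTomato+ stroma without the filter on low counts. Between luminal subsets Ttn passed without untreated replicate 3 and Tnnc1 without E+P replicate 1, among other settings. The cause was not tested. Alternatives for the ratio of Myh1 to Myh4 were chosen after seeing the data. Depth limits the slow genes, most of which had few counts or none in a library.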
